A study of Mus musculus with 9 samples.

Results

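The oxidant-defence genes described here are Nfe2l2, which encodes the transcription factor NRF2, and 9 genes of antioxidant and detoxifying enzymes, most of them known NRF2 targets: Nqo1, Gclc, Gclm, Hmox1, Txnrd1, Srxn1, Ephx1, Aox1 and Aox3. They were chosen by gene symbol, and all 10 were among the 17442 genes of the deposited table. Liver RNA was sequenced from 5 Msr1-/- mice and 4 wild type mice, all male C57BL/6 mice kept for 16 weeks on a high fat-cholesterol diet, and each liver gave 1 library. Msr1 encodes macrophage scavenger receptor 1, a surface protein of macrophages that binds modified lipoproteins. Its deletion is labelled only by genotype, with no cell type or promoter named, and both groups carried the label of non-alcoholic fatty liver disease, and livers of mice without the diet were not analysed here.

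NRF2 is held low in resting cells because KEAP1 binds it and has it degraded. When oxidants or electrophiles modify KEAP1, NRF2 accumulates, pairs with small MAF proteins and binds antioxidant response elements in the promoters and enhancers of its targets. In liver those targets make glutathione, reduce quinones, break down haem, regenerate thioredoxin and conjugate or export foreign compounds, and several of them also answer to the xenobiotic receptors CAR and PXR.

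The promoters were searched first, because a shared response element is the property these genes are best known for. The promoter sequences were those of RefSeq on GRCm38.p6, 300 bases each, with 250 before the transcription start and 50 after it. The table held 10 promoters for 8 of the 10 genes, 3 of them for Txnrd1, and none for Gclc or Hmox1. The core of the antioxidant response element, TGACNNNGC on either strand, was found in 4 of the 10 promoters, against 12.4% of all 32851 promoters. A match to these letters describes the window and is not a measured binding site. The capitals below mark the matches, and the 3 windows show each match with up to 25 bases on each side, written on the gene's own strand.
Nfe2l2 window, chr2:75704870-75704913, minus strand: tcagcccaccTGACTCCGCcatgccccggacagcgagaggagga
Gclm window, chr3:122245398-122245456, plus strand: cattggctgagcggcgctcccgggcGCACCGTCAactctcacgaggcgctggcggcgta
Txnrd1 window, chr10:82859089-82859147, plus strand: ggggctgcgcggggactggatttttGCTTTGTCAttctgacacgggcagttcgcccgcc
The Nfe2l2 match began 240 bases before the start, the Gclm match 134 before and the Txnrd1 match 92 before the second of its starts. In the Srxn1 promoter, shown whole, the core match lay 29 bases after the start, and 2 matches to the AP-1 motif TGANTCA, which was present in 7.81% of all promoters, lay before the start. AP-1 sites are shown because they resemble the response element. No AP-1 match overlapped a match to the strict core letters in these promoters. The second AP-1 match of Srxn1, TGAGTCA followed by gc, differs from the core letters only in the base after TGA. Such variants of the core were not searched for.
Srxn1 promoter, chr2:152105274-152105573, plus strand: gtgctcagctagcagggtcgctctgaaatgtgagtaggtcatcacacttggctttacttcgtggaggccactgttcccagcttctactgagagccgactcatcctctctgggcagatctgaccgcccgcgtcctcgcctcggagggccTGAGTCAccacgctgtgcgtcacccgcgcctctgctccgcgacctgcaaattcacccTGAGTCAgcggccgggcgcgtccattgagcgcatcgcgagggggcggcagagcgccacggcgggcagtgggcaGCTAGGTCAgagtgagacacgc
The promoters of Ephx1 and Aox1 are shown because these genes had the smallest p-values among the 10 in the comparison of genotypes. Neither window holds the core letters, which says nothing about sites elsewhere, and that of Aox1 holds 1 AP-1 match, in capitals.
Ephx1 promoter, chr1:181017520-181017819, minus strand: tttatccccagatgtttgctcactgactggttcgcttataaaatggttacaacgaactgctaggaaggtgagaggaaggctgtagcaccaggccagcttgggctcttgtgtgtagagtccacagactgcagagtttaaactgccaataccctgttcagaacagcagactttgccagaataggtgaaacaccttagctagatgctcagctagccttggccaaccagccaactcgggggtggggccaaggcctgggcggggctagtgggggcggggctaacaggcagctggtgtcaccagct
Aox1 promoter, chr1:58029719-58030018, plus strand: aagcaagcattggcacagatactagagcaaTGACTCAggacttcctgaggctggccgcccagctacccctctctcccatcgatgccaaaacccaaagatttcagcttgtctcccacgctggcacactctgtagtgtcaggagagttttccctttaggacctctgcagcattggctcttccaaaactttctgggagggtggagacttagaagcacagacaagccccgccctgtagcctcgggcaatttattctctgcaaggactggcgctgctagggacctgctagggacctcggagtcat

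The recovered depth was between 15006773 and 18238932 reads per liver, and the fewest reads behind any value of the 10 genes was 67. Msr1 reads were present in each liver labelled Msr1-/-, at 153 to 209 normalised read counts, against 194 to 460.5 in wild type (mean log2 difference -0.58, two-sided exact permutation p = 0.0476, smallest possible 0.0159). The permutation p rose above 0.05 on leaving out any liver except Msr1-/- 3, with a difference of -0.31 and p of 0.107 without wild type 3. In limma, over all tested genes as described below, Msr1 was not called (adjusted p = 0.264). Msr1 thus checks the labels only weakly, and whether the reads fell in deleted exons cannot be read from counts per gene. Wild type 3 stood apart from the other 8 livers on the leading principal component (41% of the variance), with a score of -88.7 against -8.30 to 27.6. For the 10 genes, results are therefore given with all 9 livers and without wild type 3.

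All values below are normalised read counts, that is, read counts divided by a size factor for each liver. Tests are limma's on log2(value + 1), over the 12937 genes with a mean of 10 or more, and a gene was called at an adjusted p under 0.05 (Benjamini-Hochberg over all tested genes). Log2 fold changes are Msr1-/- over wild type. In whole liver, a change in the number of cells of a type and a change of RNA per cell cannot be told apart.

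With all 9 livers, limma called 0 of the 10 genes, against 0.665% of all tested genes called higher in Msr1-/- livers and 0.703% called lower. At an unadjusted p under 0.05, 3 genes were higher (Gclm, Ephx1 and Aox1), against 7.3% of all tested genes. Of the other tools, edgeR called 0 of the 10 (0.572% of all genes higher and 0.858% lower). DESeq2 called 2, Ephx1 and Aox1, higher (2.38% of all genes higher and 3.62% lower), and limma with array weights, which give less weight to livers that depart from the rest, called the same 2 (2.14% higher and 1.96% lower). The livers of the groups did not overlap for 2 of the 10 genes, again Ephx1 and Aox1, both higher in Msr1-/- livers, against 3.3% of all tested genes higher without overlap and 3.99% lower. Without wild type 3, limma called 3 genes, Nfe2l2, Ephx1 and Aox1, all higher in Msr1-/- livers, against 2.59% of all tested genes called higher and 2.32% called lower. Without that liver edgeR called 2 of the 10 higher, Ephx1 and Aox1 (2.37% of all genes), and DESeq2 called 6 higher, adding Nfe2l2, Nqo1, Gclc and Srxn1 (4.2% of all genes). The groups then did not overlap for 5 genes (Nfe2l2, Nqo1, Srxn1, Ephx1 and Aox1), all higher in Msr1-/- livers, against 7.46% of all genes higher without overlap and 6.71% lower. The median log2 fold change of the 10 genes was 0.32 with all livers, 7 of 10 being positive, and 0.50 without wild type 3, 8 of 10 being positive. The median over all tested genes was 0.02 with all livers and 0.0036 without wild type 3.

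**Figure D1:**
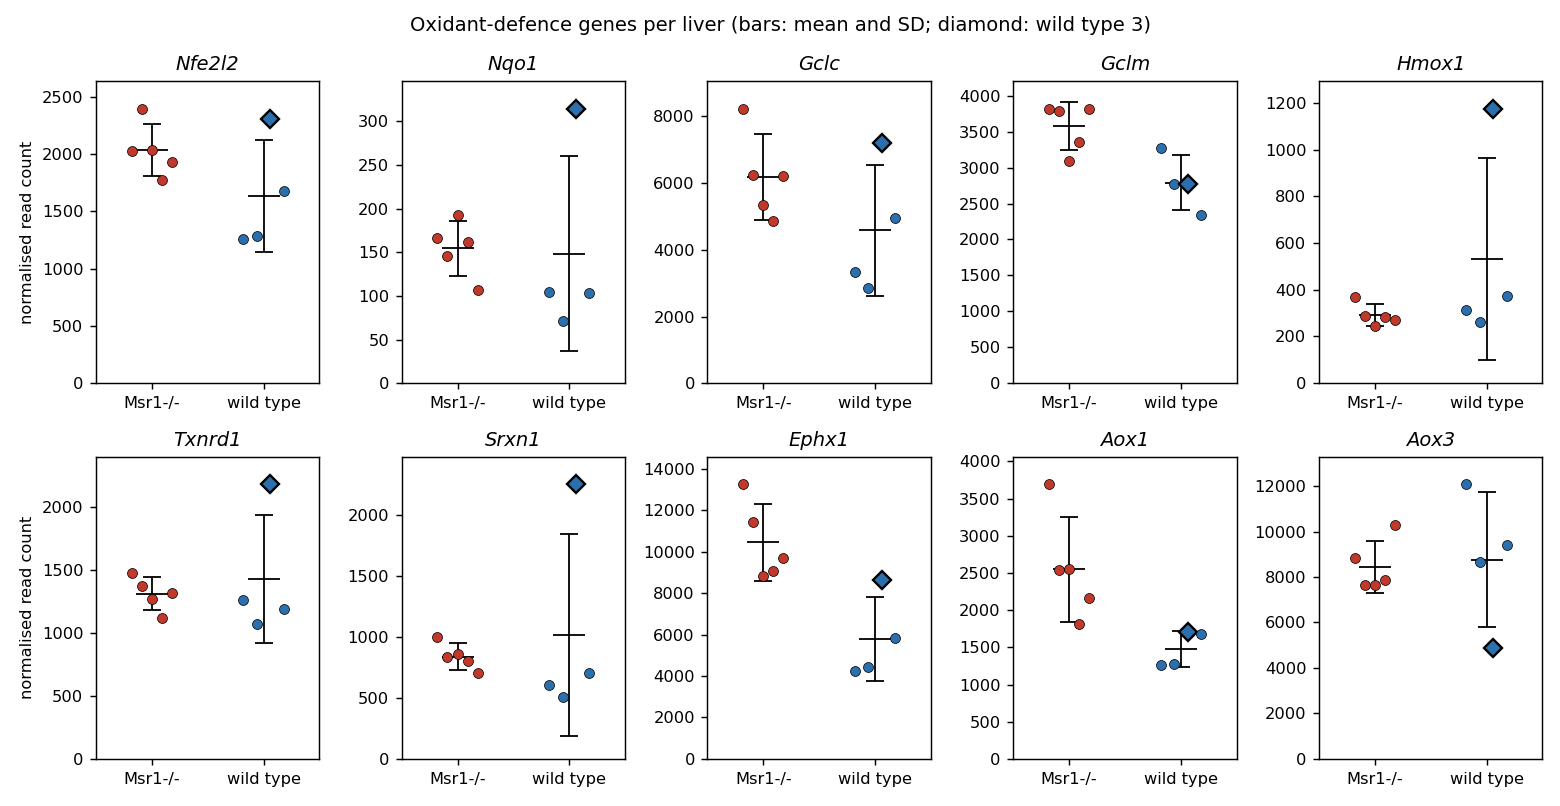
Normalised read counts (vertical axes, linear, from 0) of the 10 genes in each Msr1-/- liver (red, left) and each wild type liver (blue, right), with the mean and SD of each group as bars and wild type 3 as a diamond. Wild type 3 is the highest point in Nqo1, Hmox1, Txnrd1 and Srxn1 and the lowest in Aox3, and the groups do not overlap in Ephx1 and Aox1.

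Nfe2l2, the gene of NRF2 itself (chr2:75675513-75704641, minus strand in mm10), had 2032, 2399, 2038, 1774 and 1932 in Msr1-/- livers 1 to 5, against 1256, 1286, 2308 and 1677 in wild type livers 1 to 4. Wild type 3 lay among the Msr1-/- livers, and the other 3 wild type livers lay below all of them. The means were 2035 ± 230 in Msr1-/- livers (SD, n = 5) and 1632 ± 490 in wild type livers (SD, n = 4), a log2 fold change of 0.36 with a standard error of 0.18 and a 95% interval of -0.03 to 0.75 (limma adjusted p = 0.381). Without wild type 3 the fold change was 0.54, or 1.45-fold, and the gene was called (limma adjusted p = 0.0385). NRF2 is regulated mainly through the stability of its protein, which was not measured here.

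Gclc and Gclm encode the catalytic and the modifier subunit of glutamate-cysteine ligase, the enzyme of the rate-limiting step of glutathione synthesis. Gclc (chr9:77754535-77794485, plus strand) had 8237, 6248, 5351, 4874 and 6225 in Msr1-/- livers, against 3325, 2869, 7206 and 4955 in wild type livers. The ranges overlapped through wild type 3, the second highest of all livers, and through wild type 4, just above Msr1-/- 4. Its log2 fold change was 0.50 with a standard error of 0.26 (limma adjusted p = 0.393), and 0.75 without wild type 3, or 1.68-fold, which just missed the threshold (limma adjusted p = 0.0518). Gclm (chr3:122245557-122270732, plus strand) had 3809.9, 3791, 3095, 3357 and 3822 in Msr1-/- livers, against 3270.0, 2778, 2768 and 2342 in wild type livers. Wild type 3 did not stand out for Gclm, which was 0.990 times the mean of the other wild type livers, and the overlap came from wild type 1 and Msr1-/- 3. The log2 fold change of Gclm was 0.36 with all livers (95% interval 0.09 to 0.63, limma adjusted p = 0.186) and 0.36 without wild type 3 (adjusted p = 0.135). The subunits thus did not vary alike between livers. The count of Gclc per count of Gclm was 2.16, 1.65, 1.73, 1.45 and 1.63 in Msr1-/- livers and 1.02, 1.03, 2.60 and 2.12 in wild type livers, so both the lowest and the highest ratios were in wild type; this ratio was not tested.

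Nqo1, Hmox1, Txnrd1 and Srxn1 are among the targets most often used to read NRF2 activity, and in all of them wild type 3 was the highest of the 9 livers. Nqo1, which encodes an NAD(P)H-dependent quinone reductase (chr8:107388225-107403206, minus strand), had 166, 146, 193, 161 and 106 in Msr1-/- livers, against 105, 70.7, 315 and 103 in wild type livers. Wild type 3 held 3.38 times the mean of the other wild type livers, all 3 of which lay below every Msr1-/- liver, wild type 1 only just below Msr1-/- 5. The log2 fold change of Nqo1 was 0.28 with a standard error of 0.36 (limma adjusted p = 0.802), and 0.72, or 1.65-fold, without wild type 3 (adjusted p = 0.0666). Srxn1 encodes sulfiredoxin, which reduces overoxidised peroxiredoxins (chr2:152105516-152111376, plus strand). It had 998, 832, 862, 799 and 702 in Msr1-/- livers, against 608, 509.6, 2251 and 700.1 in wild type livers. Wild type 3 held 3.72 times the mean of the other wild type livers. Without it the groups did not overlap, though Msr1-/- 5 and wild type 4 lay close together. Srxn1 had a log2 fold change of -0.01 with all livers (limma adjusted p = 0.997) and 0.47 without wild type 3 (1.39-fold, adjusted p = 0.0767).

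Hmox1 encodes the inducible haem oxygenase, which breaks haem down to biliverdin, iron and carbon monoxide and is also a macrophage gene (chr8:75093621-75100589, plus strand). It had 369, 289, 245, 285 and 271 in Msr1-/- livers, against 315, 261, 1176 and 374 in wild type livers. The value of wild type 3 was 3.71 times the mean of the other wild type livers, whose range overlapped with that of the Msr1-/- livers. Hmox1 had a log2 fold change of -0.59 with a 95% interval of -1.39 to 0.21 (limma adjusted p = 0.503), and -0.12 without wild type 3 (interval -0.46 to 0.23, adjusted p = 0.713). Txnrd1 encodes the cytosolic thioredoxin reductase (chr10:82833951-82897712, plus strand). It had 1476, 1371, 1268, 1119 and 1317 in Msr1-/- livers, against 1259.7, 1073, 2180.1 and 1192 in wild type livers, so that only wild type 3, at 1.86 times the mean of the other wild type livers, lay outside the range of the rest by much. Its log2 fold change was -0.07 with all livers (limma adjusted p = 0.918) and 0.15 without wild type 3 (interval -0.09 to 0.40, adjusted p = 0.470). Hmox1 and Nqo1 lie on chromosome 8, as does Msr1, at 35.5 Mb and 67.7 Mb from it.

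Ephx1 encodes microsomal epoxide hydrolase, which turns reactive epoxides into diols and is known as a target of both NRF2 and CAR (chr1:180976210-181020904, minus strand). It had 13262, 11417, 8851, 9071 and 9709 in Msr1-/- livers, against 4228, 4421, 8624 and 5834 in wild type livers. All 5 Msr1-/- livers lay above all 4 wild type livers, the lowest of them close above wild type 3. The means were 10462 ± 1861 in Msr1-/- livers (SD, n = 5) and 5777 ± 2029 in wild type livers (SD, n = 4). The log2 fold change was 0.90 with a standard error of 0.22 and a 95% interval of 0.43 to 1.38, or 1.87-fold, with a limma adjusted p of 0.0686, above the threshold. Ephx1 was called higher by DESeq2 (adjusted p = 0.00773) and by limma with array weights (adjusted p = 0.00906), and not by edgeR (adjusted p = 0.0879). Without wild type 3 it was 2.16-fold higher in Msr1-/- livers (log2 1.11, limma adjusted p = 0.00428).

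The aldehyde oxidases are molybdenum enzymes that oxidise aldehydes and nitrogen heterocycles, and the mouse liver makes chiefly AOX1 and AOX3. Aox1 (chr1:58029931-58106413, plus strand) had 3693, 2539, 2548, 1815 and 2165 in Msr1-/- livers, against 1269, 1270.2, 1705 and 1674 in wild type livers. The groups did not overlap, and Msr1-/- 1 stood highest. The means were 2552 ± 706 in Msr1-/- livers (SD, n = 5) and 1480 ± 243 in wild type livers (SD, n = 4). The log2 fold change was 0.76 with a 95% interval of 0.33 to 1.18, or 1.69-fold (limma adjusted p = 0.0817). Aox1 was called higher by DESeq2 (adjusted p = 0.00827) and with array weights (adjusted p = 0.0425), and not by edgeR (adjusted p = 0.0797). Without wild type 3 it was 1.78-fold higher (limma adjusted p = 0.0352).

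Aox3 starts 6716 bases after the end of Aox1 on the same strand (chr1:58113130-58200698). It had 8849, 7637, 7627, 7849 and 10280.0 in Msr1-/- livers, against 12081, 8666, 4891 and 9412 in wild type livers. The ranges overlapped and the extremes were both in wild type, with wild type 3 lowest of all livers at 0.486 times the mean of the other wild type livers. Aox3 had a log2 fold change of 0.01 with a 95% interval of -0.49 to 0.51 (limma adjusted p = 0.992), and -0.25 without wild type 3 (interval -0.57 to 0.07, adjusted p = 0.363). The count of Aox1 per count of Aox3 was 0.417, 0.333, 0.334, 0.231 and 0.211 in Msr1-/- livers, against 0.105, 0.147, 0.349 and 0.178 in wild type livers. All Msr1-/- livers exceeded wild type 1, 2 and 4 in this ratio, and wild type 3 exceeded 4 of them; it was not tested. The 2 genes are paralogs in tandem, and reads that fit both could not be traced in gene totals.

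**Figure D2:**
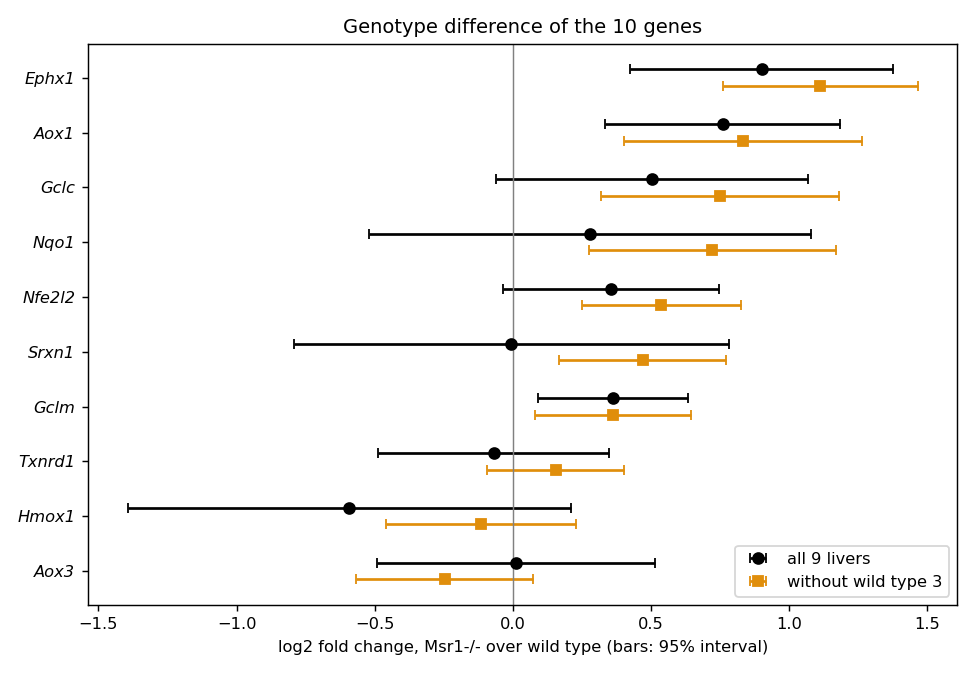
Log2 fold change of Msr1-/- over wild type livers (horizontal axis) for the 10 genes, with 95% intervals as bars, from all 9 livers (black circles) and without wild type 3 (orange squares). The interval of Ephx1 runs from 0.43 to 1.38 with all livers, and the wide intervals of Hmox1, Nqo1 and Srxn1 narrow when wild type 3 is left out.

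Wild type 3 held the highest value of the 9 livers in 4 of the 10 genes, against 26.5% of all tested genes, and the lowest in 1, against 25.5%. It lay more than 2-fold above the mean of the other wild type livers on the log2 scale in 3 genes, Nqo1, Hmox1 and Srxn1, against 10.6% of all tested genes, and more than 2-fold below it in 1, Aox3, against 8.79%. The coefficient of variation of Hmox1 was 15.9% in Msr1-/- livers and 81.3% in wild type livers (17.9% without wild type 3). For Srxn1 it was 12.8% in Msr1-/- livers and 81.2% in wild type livers (15.7% without wild type 3), and for Nqo1 20.6% in Msr1-/- livers and 75.4% in wild type livers (20.8% without wild type 3). Ephx1, Gclc and Nfe2l2 were also higher in wild type 3 than in the other wild type livers, at 1.79, 1.94 and 1.64 times their mean, and Aox1 less so, at 1.21 times.

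**Figure D3:**
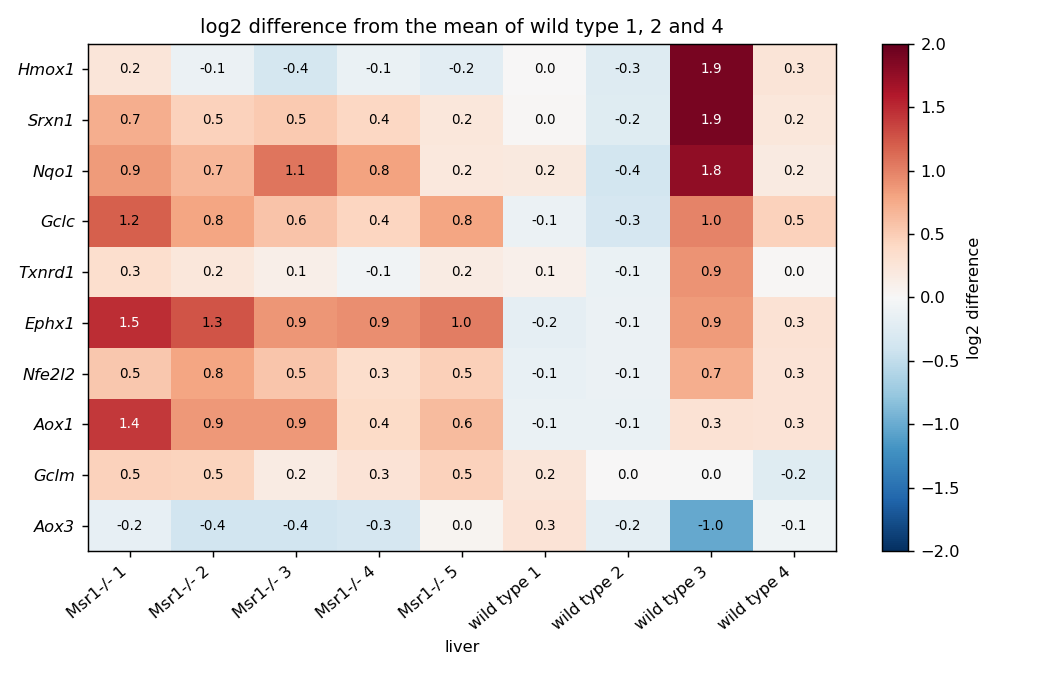
Log2 difference of each gene (vertical) in each liver (horizontal, Msr1-/- livers left and wild type livers right) from the mean of wild type 1, 2 and 4 on the log2(value + 1) scale; red is higher and blue lower, and each cell prints its difference. Wild type 3 has the largest differences in Hmox1, Srxn1 and Nqo1, and each Msr1-/- liver is above 0 in Ephx1, Aox1, Gclc, Gclm, Nfe2l2, Nqo1 and Srxn1.

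Marker sums of several other cell types were lower in each Msr1-/- liver than in each wild type liver, and most of them were highest in wild type 3. The summed level of the 13 Kupffer cell and macrophage markers was 7328 to 9692 in Msr1-/- livers and 10501 to 22440 in wild type livers, the highest sum being that of wild type 3; without it the wild type range was 10501 to 13658. None of the 13 was at 0 in any liver, all 13 had a negative log2 fold change with a median of -0.89, and limma called 2 lower in Msr1-/- livers, against 0.703% of all tested genes lower. At an unadjusted p under 0.05, 12 were lower (8% of all genes), and DESeq2 called 10 lower (3.62%). Lower calls were 2 in edgeR (0.858%) and 5 in limma without wild type 3 (2.32%). The 8 lipid-associated macrophage markers summed to 3594 to 4390 in Msr1-/- livers and 5020 to 13416 in wild type livers, again highest in wild type 3 (5020 to 5540 without it). Neutrophil markers summed to 55.1 to 116 in Msr1-/- livers and 129 to 280 in wild type livers, and cholangiocyte markers to 249.5 to 545 in Msr1-/- livers and 619 to 1675 in wild type livers, both highest in wild type 3. Spp1 is on both the cholangiocyte and the lipid-associated macrophage lists, so those sums are not separate. Of the 5 cholangiocyte markers, 3 were high enough to test, and the lowest had a mean of 5.05. B and T cell markers summed to 150 to 288 in Msr1-/- livers and 368 to 676 in wild type livers, lowest within wild type in wild type 3. Stellate cell markers overlapped, at 3058 to 3643 in Msr1-/- livers and 3448 to 7492 in wild type livers, with the highest sum in wild type 3 (3448 to 3851 without it). The part of these cell types in the levels of Hmox1 and of the other genes that were high in wild type 3 was not tested. The 9 hepatocyte markers summed to 1791510 to 2442510 in Msr1-/- livers and 1385560 to 2107170 in wild type livers, and the lowest sum was that of wild type 3. Aox3 was low in that liver and Ephx1 was not, and the part of hepatocyte number in their levels was not tested.

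Per length, Ephx1 was the most abundant of the 10 genes and Nqo1 the least. Counts were divided by the union of each gene's exons in kilobases (1.95 kb for Ephx1, 8.69 kb for Aox1) to set genes beside each other. In Msr1-/- livers the mean level per kb was 5365 for Ephx1, 1643 for Gclc, 1201 for Aox3, 568 for Gclm, 536 for Nfe2l2, 297 for Srxn1, 294 for Aox1, 185 for Txnrd1, 167 for Hmox1 and 99.5 for Nqo1. In wild type livers the order of the means was Ephx1 at 2962, Aox3 at 1246, Gclc at 1218, Gclm at 443, Nfe2l2 at 429.9, Srxn1 at 361, Hmox1 at 304, Txnrd1 at 201, Aox1 at 170.3 and Nqo1 at 95.5. Aox1 thus stood above Txnrd1 and Hmox1 in Msr1-/- livers and below both in wild type livers, also without wild type 3 (162 for Aox1, 166 for Txnrd1 and 181 for Hmox1), with overlapping ranges in wild type livers. Ephx1 exceeded Gclc in all 9 livers, Aox3 exceeded Gclm in all 9, and Hmox1 exceeded Nqo1 in all 9. The order of the remaining neighbours differed between livers, as Gclm exceeded Nfe2l2 in 5 of 9 livers, Srxn1 exceeded Aox1 in 7 and Txnrd1 exceeded Hmox1 in 4. Exons that a liver does not use lower a level per kb, so this order is approximate.

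**Figure D4:**
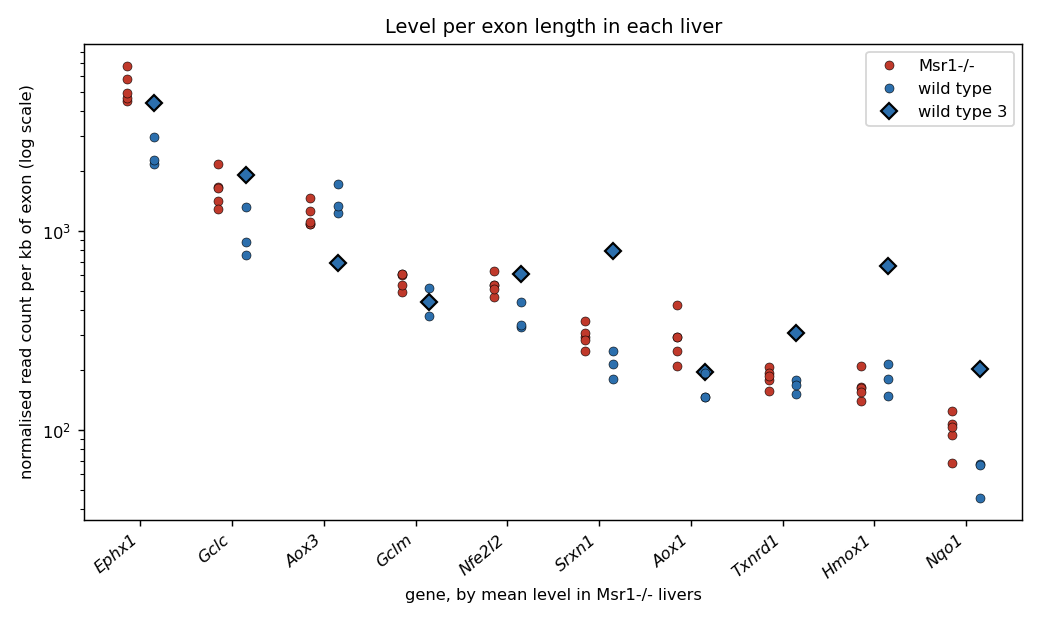
Normalised read count per kilobase of exon (vertical axis, log scale) for the 10 genes in the order of their mean in Msr1-/- livers, with Msr1-/- livers in red (left of each pair), wild type livers in blue (right) and wild type 3 as a diamond. Ephx1 lies above the other genes in each group, and the diamonds of Srxn1, Txnrd1, Hmox1 and Nqo1 lie above all other livers of their gene.

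Of 14 tested genes of partners and regulators of NRF2, limma called 0 with all livers, against 0.665% of all tested genes higher and 0.703% lower. At an unadjusted p under 0.05, 1 was higher, against 7.3% of all tested genes. Both edgeR (0.572% of all genes higher and 0.858% lower) and DESeq2 (2.38% and 3.62%) called 0. The median log2 fold change of the 14 genes was 0.07. Keap1, the gene of the protein that holds NRF2 low, had 546 to 599 in Msr1-/- livers and 573 to 629.9 in wild type livers (log2 -0.09, 95% interval -0.28 to 0.11, limma adjusted p = 0.730). Bach1, which encodes a repressor at the same response elements, had 339 to 504 in Msr1-/- livers and 317 to 548 in wild type livers (log2 -0.06, interval -0.44 to 0.32). Nfe2l1, which encodes the related factor NRF1, was called without wild type 3, when it was 1.36-fold higher in Msr1-/- livers (limma adjusted p = 0.0424), and not with it (log2 0.28, adjusted p = 0.450).

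Among 37 tested genes of a list of other known NRF2 targets, 27 had a positive log2 fold change (73.0%, against 52.7% of all tested genes), with a median of 0.21. Limma called 1 higher and 0 lower, against 0.665% and 0.703% of all tested genes. That gene, Abcc3, encodes an exporter of glucuronides and bile salts, and had 4033, 3672, 4009, 3052 and 3128 in Msr1-/- livers, against 1132, 1077, 2586 and 2039 in wild type livers. The groups did not overlap, and Abcc3 was 2.23-fold higher in Msr1-/- livers (log2 1.16, standard error 0.25, limma adjusted p = 0.0498), just under the threshold. The adjusted p was 0.0644 in edgeR, 0.00262 in DESeq2 and 0.00714 with array weights. On leaving out each liver in turn the log2 fold change of Abcc3 lay between 0.97 and 1.39, and only without wild type 3 was it called. Without wild type 3, 29 of 36 targets were positive (80.6%, against 50.5% of all tested genes) with a median of 0.33, and 9 were called higher and 0 lower, against 2.59% and 2.32% of all tested genes.

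Those 9 targets were Abcc3, the ferritin light chain gene Ftl1, the malic enzyme gene Me1 and 6 glutathione S-transferase genes, Gsta1, Gsta2, Gsta3, Gsta4, Gstm1 and Gstm4. Gsta1, Gsta2, Gsta4, Gstm1, Gstm4 and Me1 are named here after their values were seen, and the transferase genes have close paralogs among which reads can be split uncertainly. Gsta3 had 25524 to 28558 in Msr1-/- livers, against 13319.6 to 20243 in wild type livers, without overlap (1.54-fold, limma adjusted p = 0.0763; 1.62-fold without wild type 3, adjusted p = 0.0226). Gsta4 had 1416 to 1717 in Msr1-/- livers, against 847, 767, 2309.5 and 1044 in wild type livers, where wild type 3 was again the highest of all livers. It was 1.83-fold higher in Msr1-/- livers without wild type 3 (limma adjusted p = 0.00393), against log2 0.53 with all livers (adjusted p = 0.398). Gsta1 had 86.2 to 368 in Msr1-/- livers, against 4.28, 4.22, 1057 and 103 in wild type livers. With all livers its log2 fold change was 2.53 in limma and -0.15 in edgeR (adjusted p = 0.424 and 0.976), and without wild type 3 it was 4.08 in limma (adjusted p = 0.0201). That was the only call of Gsta1 in 21 alternatives, and neither edgeR nor DESeq2 called it without wild type 3. Me1, a source of NADPH, had 1071 to 2671 in Msr1-/- livers, against 779.5, 477, 3038 and 866 in wild type livers, and was 2.51-fold higher in Msr1-/- livers without wild type 3 (limma adjusted p = 0.0189). In 20 of the 37 targets (54.1%) wild type 3 was the highest of the 9 livers, against 26.5% of all tested genes.

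The lists of the other arms of oxidant defence, up to NADPH supply, are given with their counts. Of all tested genes, limma called 0.665% higher and 0.703% lower (2.59% and 2.32% without wild type 3). The shares were 7.3% and 8% at an unadjusted p under 0.05, 0.572% and 0.858% in edgeR, and 2.38% and 3.62% in DESeq2. At the limma shares a list this short can hold 0 calls without differing from all genes, so 0 is not read as a result. In the list of 15 tested genes of glutathione synthesis, recycling and peroxidases limma called 0 (2 lower at an unadjusted p under 0.05; 1 lower by edgeR and 1 by DESeq2). That gene was Gpx3, a secreted glutathione peroxidase, with 45.6 to 56.1 in Msr1-/- livers and 70.6 to 235 in wild type livers, without overlap (log2 -1.29, limma adjusted p = 0.0517; -0.99 and adjusted p = 0.0187 without wild type 3). Gsr, the glutathione reductase gene, had 837 to 1096 in Msr1-/- livers and 653 to 1329 in wild type livers (log2 0.07, limma adjusted p = 0.919; 0.27, adjusted p = 0.268 without wild type 3). Slc7a11, which encodes the cystine importer and is a known NRF2 target, had no read in any Msr1-/- liver or in wild type 1 and 2, and 10.2 and 2.85 in wild type 3 and 4, and was too low to test.

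Of 18 genes of the thioredoxin, peroxiredoxin and methionine sulfoxide repair list, limma called 0 (3 higher and 1 lower at an unadjusted p under 0.05; 0 by edgeR and 3 higher by DESeq2). Sesn2, a stress-responsive sestrin gene, had 162 to 187 in Msr1-/- livers and 113 to 134 in wild type livers, without overlap (1.43-fold, limma adjusted p = 0.0547; 1.49-fold, adjusted p = 0.0213 without wild type 3). Msra, the methionine sulfoxide reductase gene, had 3755 to 4579 in Msr1-/- livers and 2518 to 3551 in wild type livers, also without overlap (1.44-fold, limma adjusted p = 0.0663; 1.53-fold, adjusted p = 0.0134 without wild type 3). Txn1, the cytosolic thioredoxin gene, had log2 0.04 with all livers and -0.05 without wild type 3 (limma adjusted p = 0.934 and 0.837).

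Limma called 0 of 11 genes of superoxide and peroxide removal (3 higher and 2 lower at an unadjusted p under 0.05; 0 by edgeR; 1 higher and 1 lower by DESeq2). Cat, the catalase gene, had 60801 to 70395 in Msr1-/- livers and 34039 to 52755 in wild type livers, without overlap (1.42-fold, limma adjusted p = 0.204, DESeq2 adjusted p = 0.0205; 1.29-fold, limma adjusted p = 0.155 without wild type 3). The metallothionein gene Mt1 had 91.0 to 158 in Msr1-/- livers and 158 to 453 in wild type livers (log2 -1.19, limma adjusted p = 0.0855; DESeq2 adjusted p = 0.00289). Sod1 had log2 0.10 with all livers and -0.04 without wild type 3 (limma adjusted p = 0.861 and 0.913). In the list of haem breakdown and iron storage limma called 0 of 8 (2 higher at an unadjusted p under 0.05; 0 by edgeR and 1 higher by DESeq2). Blvrb, a biliverdin reductase gene, had 3724 to 4632 in Msr1-/- livers and 2492 to 3437 in wild type livers (1.36-fold, limma adjusted p = 0.0999; 1.28-fold, adjusted p = 0.0933 without wild type 3). Ftl1 was 1.29-fold higher with all livers (limma adjusted p = 0.309), where the groups overlapped and wild type 3 was the highest liver. Without wild type 3 it was 1.45-fold higher (limma adjusted p = 0.0214).

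Around the aldehyde oxidases, limma called 0 of 9 genes of molybdenum enzymes and their cofactor (2 higher at an unadjusted p under 0.05; 0 by edgeR and 1 higher by DESeq2). Xdh, the xanthine dehydrogenase gene, had 1837 to 2192 in Msr1-/- livers and 1266 to 1724 in wild type livers, without overlap, and wild type 3 did not stand apart for it (1.39-fold, limma adjusted p = 0.0691; 1.36-fold, adjusted p = 0.0560 without wild type 3; DESeq2 adjusted p = 0.00492). Suox, the sulfite oxidase gene, was called without wild type 3 (1.77-fold, limma adjusted p = 0.0296) and not with it (adjusted p = 0.173). Of the other epoxide hydrolases, limma called 0 of 2 tested (1 higher at an unadjusted p under 0.05; 0 by edgeR and by DESeq2). Ephx2, the soluble enzyme, had 19239.7 to 21832 in Msr1-/- livers and 11773 to 17485 in wild type livers, without overlap (1.32-fold, limma adjusted p = 0.208; 1.21-fold, adjusted p = 0.183 without wild type 3). In the NADPH supply list, 0 of 12 were called (1 higher and 1 lower at an unadjusted p under 0.05; 0 by edgeR and 1 higher by DESeq2), and without wild type 3 the genes Me1, Idh2 (named after its values were seen) and Nnt were called higher in Msr1-/- livers. The gene lower at an unadjusted p under 0.05 was G6pdx, also on the list of other NRF2 targets. G6pdx had 50.3 to 73.1 in Msr1-/- livers and 74.0 to 176 in wild type livers, without overlap. Its log2 fold change was -0.73 (limma adjusted p = 0.189), and -0.45 without wild type 3 (adjusted p = 0.160). Tkt was the higher one (1.28-fold, limma adjusted p = 0.155). Nnt, which the C57BL/6J substrain is known to lack in intact form, had 697 to 899.7 in Msr1-/- livers and 555 to 996 in wild type livers. Counts per gene do not show whether Nnt was intact in either group.

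Of 9 tested genes that make oxidants, 6 had a negative log2 fold change, with a median of -0.97, and limma called 1 lower and 0 higher, against 0.703% and 0.665% of all tested genes. At an unadjusted p under 0.05, 6 were lower and 1 higher, against 8% and 7.3% of all tested genes. Of the other tools, edgeR called 1 lower (0.858% of all genes) and DESeq2 6 lower (3.62%). Ncf1, a subunit gene of the phagocyte NADPH oxidase, had 41.3, 45.0, 41.1, 53.8 and 46.1 in Msr1-/- livers, against 96.2, 93.9, 184 and 84.4 in wild type livers. The groups did not overlap, and Ncf1 was 2.38-fold lower in Msr1-/- livers (limma adjusted p = 0.0291; adjusted p = 0.00788 without wild type 3). Leaving out any liver other than wild type 3 or 4 ended the call, with adjusted p up to 0.0801 in limma. Cybb, the catalytic subunit gene of the same oxidase, and Rac2 were called lower without wild type 3, at log2 -0.78 and -0.80 (limma adjusted p = 0.0241 and 0.0288), and not with it (adjusted p = 0.0806 and 0.0763). These are genes of phagocytes, and the macrophage marker sums given above moved with them; the part of cell number was not tested.

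Of 14 tested genes of a list of known CAR and PXR targets, 13 had a positive log2 fold change, against 52.7% of all tested genes, with a median of 1.09, and limma called 3 higher and 0 lower, against 0.665% of all tested genes higher. Without wild type 3, 13 of 13 were positive with a median of 0.98, and limma called 5 higher, adding Cyp2c55 and Cyp3a11, against 50.5% of all tested genes positive and 2.59% called higher. The count is given because CAR also acts on Ephx1 and on transferase genes. The cytochrome P450 gene Cyp2c29 had 19537 to 30871 in Msr1-/- livers and 1557 to 7985 in wild type livers (log2 2.61, limma adjusted p = 0.0204), and Ugt1a1, the bilirubin glucuronosyltransferase gene, had 428 to 1030.1 in Msr1-/- livers and 167 to 354 in wild type livers (2.79-fold, limma adjusted p = 0.0347). Cyp2b9 had 33.1 to 209 in Msr1-/- livers and 1.07 to 5.49 in wild type livers (limma adjusted p = 0.00383), where its fold change depends on the added count. Cyp2b9 was called whichever liver was left out. Cyp2b10, a gene of the same family on the list, was not among the genes limma called, with or without wild type 3. Activity of CAR or PXR was not tested. Cyp2c29 lost its call without Msr1-/- 1, 2 or 4 or wild type 2 (highest limma adjusted p 0.0657), and Ugt1a1 was not called when wild type 2, wild type 4 or any Msr1-/- liver but Msr1-/- 4 was left out (adjusted p of at most 0.0899) and lay at the threshold without wild type 1. These families hold close paralogs, and the exons that the Ugt1a genes share make their counts uncertain. Over the list wild type 3 was the highest of the 9 livers for 4 of 14 genes and the lowest for 5.

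**Figure D5:**
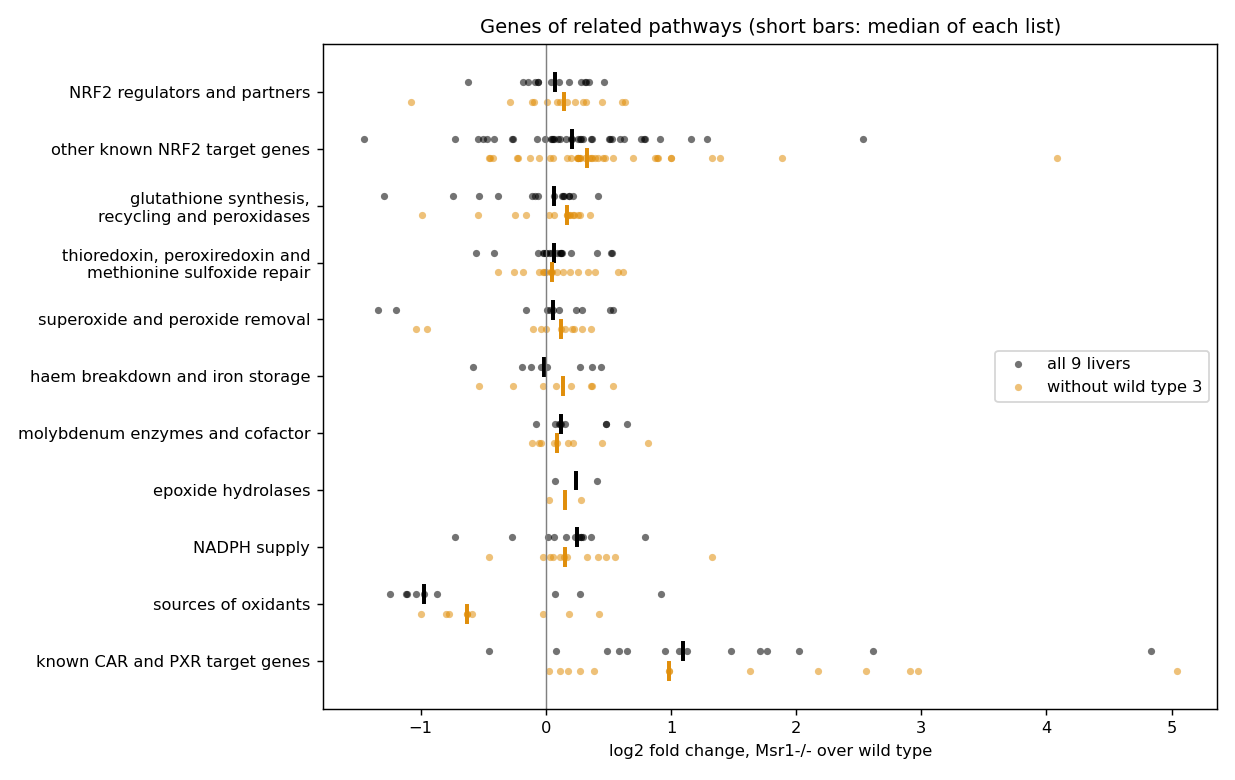
Log2 fold change of Msr1-/- over wild type livers (horizontal axis) for each tested gene of 11 lists around the oxidant-defence genes (vertical), from all 9 livers (black) and without wild type 3 (orange); short bars are the median of each list. Sources of oxidants have a median of -0.97 and known CAR and PXR targets a median of 1.09 with all livers, while the medians of the other lists lie between -0.02 and 0.25.

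The genes whose pattern over the 9 livers was most like those of Ephx1 and Aox1 were sought as a description. Likeness was the root mean square difference of log2 values, each gene centred on its own mean, over 9 livers. Nearest to Ephx1 were Pcsk6, at 0.16, and Slc17a1, at 0.16, where the median over all tested genes was 0.62. Nearest to Aox1 were Pcsk6, at 0.17, and Arsa, at 0.18, where the median was 0.55. Pcsk6, which encodes a proprotein convertase, had 2041, 1737, 1621, 1462 and 1427 in Msr1-/- livers, against 849, 781, 1219 and 912 in wild type livers (1.77-fold, limma adjusted p = 0.0307). On leaving out single livers, Pcsk6 was called only without wild type 3 (limma adjusted p = 0.00358), and otherwise had adjusted p up to 0.0878. Like Ephx1, it was highest in Msr1-/- 1 and, within wild type, in wild type 3. Slc17a1 and Arsa were not called with all livers (limma adjusted p = 0.0970 and 0.0848), and were called without wild type 3 (adjusted p = 0.00916 and 0.0281). Likeness was taken over these same livers, genotype difference included, so the p-values of these neighbours are no separate evidence.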

How the data were processed

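Liver RNA of 5 Msr1-/- and 4 wild type mice was sequenced from TruSeq libraries, per the labels' protocols, 1 library per animal, with groups and animal numbers from the sample titles. The submitters' processing notes name STAR, HTSeq, DESeq2 and mm10; versions, filters and the strand setting are not given in the sources used here. What the authors deposited was a signal for each of 17442 genes in each liver, namely read counts divided by a size factor. Within a tolerance of 0.01 reads, 100% of the values were whole multiples of a step in each liver, which recovered 15006773 to 18238932 reads per liver. This depth covers counting error only; the spread between animals sets the precision. No 2 libraries were duplicates (lowest chi-square per degree of freedom 21.3).

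On the log2(value + 1) scale, the 12937 genes whose mean reached 10 were tested with limma 3.58.1 in R 4.3.3 (trended empirical Bayes, genotype only). Fold changes, standard errors, intervals and adjusted p-values (Benjamini-Hochberg, threshold 0.05) are limma's unless another tool is named; they understate the change of low genes. Alternatives were pseudocounts of 0.5 and 5, no filter, a mean of 50 or more, TMM, quantile normalisation, array weights, edgeR 4.0.16 and DESeq2 1.42.0 on recovered reads, a block for the animal number, and leaving out every liver once. Same-numbered animals were not treated as pairs. The fits were tested on simulated data.

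Positions and exon unions came from GENCODE M21 on GRCm38, the assembly of mm10, and promoters from RefSeq on GRCm38.p6. The 10 genes, the lists, the markers and the tests were chosen with earlier results of these data known. Of each list, the called genes or, with fewer than 3 called, up to 3 of smallest p were selected, with some fixed genes. Not all of these are described in the text. Left out were Btrc, Gsk3b, Abcc2, Gpx8, Ggct, Prdx6, Mt2, Hpx, Mocs1, Lta4h and H6pd, whose log2 fold changes had both signs. Cyp2b10, Cyp2c55 and Cyp3a11 are named outside this rule, and genes named after their values were seen are marked as such. Leaving out wild type 3 with edgeR and DESeq2 was added after seeing the data.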

Additional observations from a re-analysis of the deposited data

Results flagged for a closer look

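In groups of 4 or 5 livers, a value counted as far from the others when its gap to the nearest, as a share of the group's range, passed Dixon's 95% critical value, which chance gives in about 1 of 20 groups. Of 120 groups examined, 10 held such a liver, and 9 of these were wild type 3. The share of such groups over all tested genes was not computed. Over all tested genes, wild type 3 was the highest of the livers in 26.5% and the lowest in 25.5%. The groups share the same livers, and some genes were chosen by p or after their values were seen. The rate of 1 of 20 is therefore no measure for this count, which is not read as particular to these genes. Among the oxidant-defence genes, wild type 3 stood far above the other wild type livers for Nqo1 at 314.6, Hmox1 at 1176, Txnrd1 at 2180 and Srxn1 at 2251. It also did so for the NADPH genes Nnt at 996.3, G6pdx at 175.7 and Me1 at 3038, for the oxidase gene Ncf1 at 184.4, and for Gsta1 at 1057. Me1 and Gsta1 were among the genes named after their values were seen. In the Msr1-/- group, Msr1-/- 4 stood far below the other livers for Arsa, at 665.4.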

How the results depend on the processing

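Limma on all livers called 86 genes higher and 91 lower in Msr1-/- livers, none of them among the 10. With a mean of 50 or more, 58 were lower. DESeq2 called 307 higher and 466 lower (2 of the 10 higher), array weights 277 and 254 (2 higher), edgeR without wild type 3 304 and 352 (2 higher) and DESeq2 without it 539 and 520 (6 higher). Leaving out each liver in turn gave 19 to 332 higher, 17 to 297 lower and 0 to 3 of the 10 higher; the largest counts were without wild type 3. Msr1 then lay between -0.7188 and -0.3057 (log2). Ephx1 and Aox1 were called in 5 of 21 alternatives each; the cause was not tested. No other liver left out led to a call among the 10, and 0 of the 10 were called lower in any alternative.

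With the animal number as a replicate block, which leaves Msr1-/- 5 without a partner, 8 genes were called higher and 0 lower, and 0 of the 10. Same-numbered animals deviated together at correlations of 0.0246, -0.077, -0.102 and 0.218, so the numbers are not taken as pairs.

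Reversals of sign were among estimates near 0 and Gsta1, and their cause was not tested. Txnrd1 was 0.1055 with array weights, and 0.1478 and 0.1539 in edgeR and DESeq2 without wild type 3. Srxn1 was 0.3174 with array weights, 0.05625 with the replicate block, and 0.4574 and 0.4637 in those 2 fits. Aox3 was -0.1108 with quantile normalisation, -0.05755 in edgeR, -0.0566 in DESeq2, -0.1483 with array weights, -0.06312 with the block, and -0.2602 and -0.2548 without wild type 3. Sod1 was -0.07643 with quantile normalisation, -0.0003536 with array weights, and -0.04446 and -0.03792 without wild type 3. Txn1 was -0.08211, -0.03834, -0.05885 and -0.05233 in the same 4 fits. Gsta1 was -0.1495 in edgeR and -0.1295 in DESeq2. On leaving out single livers the range was -0.1859 to 0.1548 for Txnrd1, -0.2432 to 0.4706 for Srxn1, -0.246 to 0.1888 for Aox3, -0.2015 to 0.0609 for Bach1, -0.03781 to 0.1967 for Sod1, -0.07213 to 0.2692 for Gsr and -0.05089 to 0.1013 for Txn1.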
